A study of Arabidopsis thaliana with 6 samples.

Results

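Transcript levels of 40 genes that make, move and break down glucosinolates were compared between msh1 memory plants and wild-type plants of Arabidopsis thaliana. The 40 genes were taken by locus identifier from the 33602 loci of each count file. They comprise the MYB regulators, the enzymes of the aliphatic and indolic branches, the transporters GTR1 and GTR2, the myrosinases TGG1 and TGG2 and the epithiospecifier protein ESP. 38 of the 40 passed the filter on low counts, against 16928 of all loci.

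The study sequenced 3 individual msh1 memory plants, numbered 31, 32 and 33, and 3 isogenic wild-type plants, numbered 22, 23 and 24, all of ecotype Col-0 (Columbia-0). MSH1 encodes a MutS-like protein of plastids and mitochondria. As background, memory plants descend from plants in which MSH1 was silenced by a transgene that they have since lost, and they keep an altered growth form. All plants were stratified at 4 °C for 2 days, grown at 22 °C and frozen whole at early bolting, and the labels name no other treatment of either group. The sources used here state neither the generation nor the number of parent lines nor the hour of harvest.

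Library totals were 4060216 to 5053439 counts in memory plants and 5459895 to 5806617 counts in wild-type plants, and 1 CPM (library-scaled counts, with libraries scaled by the trimmed mean of M values, TMM) stood for 4.33 to 5.75 counts. Wild-type plant 23 stood apart, at 66.1 on a first principal component that held 41.2% of the variance, where the other 5 plants lay between -24.8 and -3.90, so results that rest on it are given with and without it. MSH1 was at 12.6, 13.1 and 16.9 CPM in memory plants and at 17.5, 12.6 and 12.2 CPM in wild-type plants (log2 fold change 0.0090, edgeR adjusted p = 0.991), so its level does not tell the groups apart. Although whole plants are named in the labels, 7 root markers summed to 0.201 to 0.462 CPM in memory plants and 0 to 1.22 CPM in wild-type plants, and none passed the filter. The root markers EXPA7 and IRT1 had no read in any library. A list of 7 flower organ markers summed to 5.98 to 13.6 CPM in memory plants and 2.34 to 5.74 CPM in wild-type plants, and its part in the results below was not tested.

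Glucosinolates are sulphur-rich thioglucosides of the cabbage order that deter herbivores and microbes. Their side chains come mainly from chain-elongated methionine in the aliphatic branch and from tryptophan in the indolic branch, and a common set of steps builds the core. Myrosinases, kept in separate cells, release the toxic products when tissue is damaged, and proton-coupled importers load intact glucosinolates into the phloem.

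Few glucosinolate genes were called different between the groups, and few were called among all tested genes. Of the 38 tested genes 1 fell, none rose and 37 were not called, at an edgeR quasi-likelihood adjusted p under 0.05. That is 2.63% of the members, beside 1.82% of all tested genes called in either direction, 1.37% called lower and 0.449% called higher. The gene that fell was GTR2, a glucosinolate importer, at a fold change of 0.659. In bulk samples, fewer cells that express the gene and less RNA per cell cannot be told apart. The median log2 fold change was -0.064 over the 38 genes and 0.0079 over all tested genes, and 16 members had positive and 22 negative values. For 30 of the 38 genes, GTR2 among them, the 95% interval of the fold change lay inside a 2-fold change in either direction, as it did for 73.7% of all tested genes. The other 8 genes, whose intervals reach past 2-fold, were MYB76, MYB51, MAM3, CYP79F2, GSTF11, FMO GS-OX2, FMO GS-OX4 and CYP81F2. At an unadjusted edgeR p under 0.05 stood 6 of the 38 members, beside 2174 of the 16928 tested genes (12.8%). The groups did not overlap for 7 members (18.4%), 1 with memory plants higher and 6 with memory plants lower, beside 19.7% of all tested genes, 9.52% higher and 10.2% lower.

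The number of called members depended on the settings and on single plants. It was 1 with DESeq2 size factors (1.81% of all genes called) and with a filter of 1 CPM in 3 libraries (1.71%), 2 with the DESeq2 test (3.13%) and 3 without a low-count filter (2.02%). None was called with library totals (1.6%), limma voom (1.32%) or edgeR without robust estimation (1.78%). Leaving out wild-type plant 23 gave 6 called members (5.93%). None was called without plant 22 (1.23%), 24 (1.49%), 31 (0.198%), 32 (0.377%) or 33 (0.221%).

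**Figure D1:**
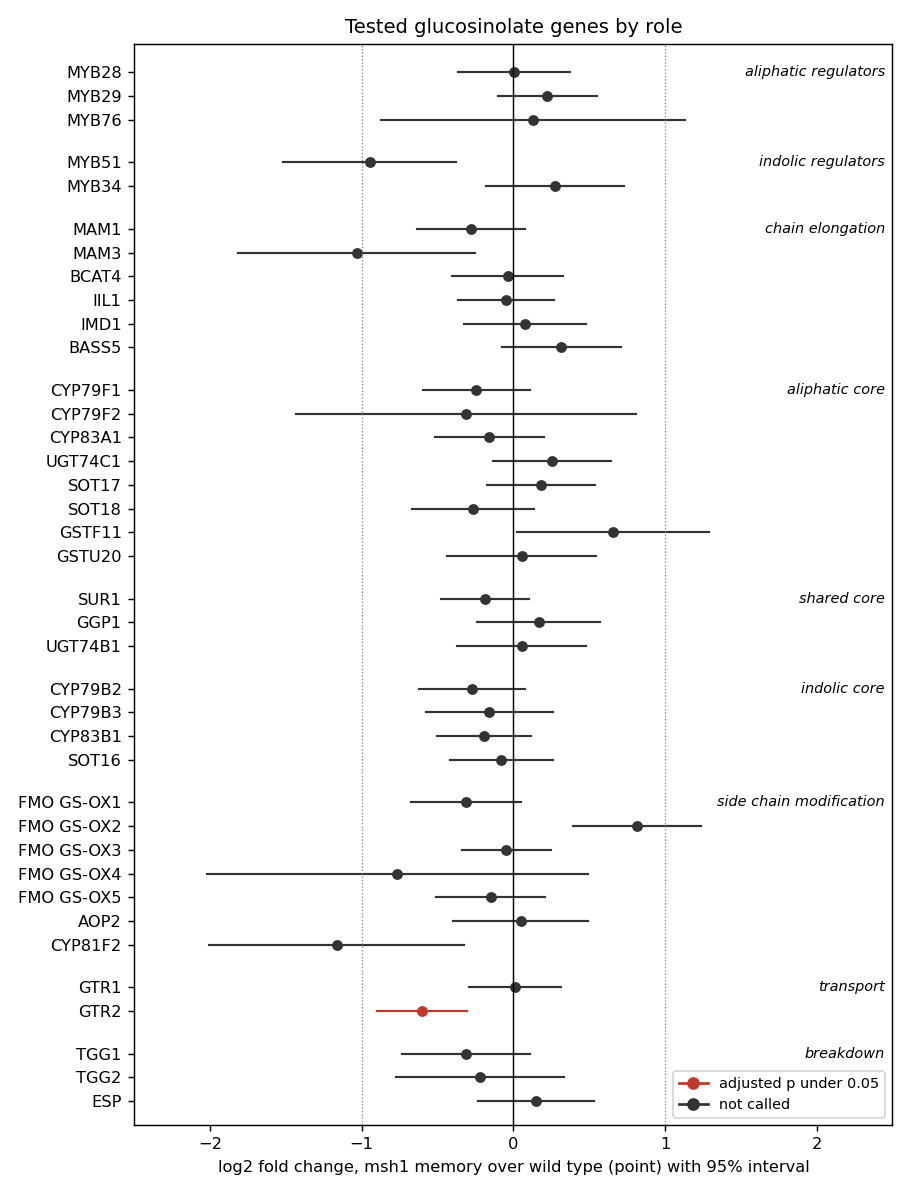
Log2 fold change of msh1 memory over wild type (points, x axis) with its 95% interval (lines) for the 38 tested genes, grouped by role down the y axis; dotted lines mark a 2-fold change. GTR2, in red at -0.60, is the 1 called gene, and most other intervals cross 0 and end inside the dotted lines.

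The 2 untested genes were nearly silent. AOP3, a dioxygenase that forms hydroxyalkyl side chains in other accessions, had no read in any plant, which allows up to 0.603 to 0.694 CPM in memory plants and 0.522 to 0.580 CPM in wild-type plants (3 counts, counting error only). MYB122, a minor activator of the indolic branch, had no read in any memory plant and 1 read in wild-type plant 22.

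None of the aliphatic regulators was called. MYB28, the main activator of the aliphatic branch, was at 70.1, 63.8 and 80.7 CPM in memory plants 31, 32 and 33 and at 57.0, 86.0 and 71.2 CPM in wild-type plants 22, 23 and 24. The groups overlapped, and edgeR gave a log2 fold change of 0.0018, a standard error (SE) of 0.169 and a 95% interval of -0.37 to 0.37 (adjusted p = 0.999). MYB29, its partner, was at 53.0, 46.9 and 51.3 CPM in memory plants and 50.7, 39.4 and 39.2 CPM in wild-type plants. Its wild-type values spanned a wider range than its memory values (log2 fold change 0.22 with SE 0.149, edgeR adjusted p = 0.591). MYB76, which lies next to MYB29 on chromosome 5, averaged 3.49 ± 1.93 CPM in memory plants and 3.18 ± 0.653 CPM in wild-type plants (SD, n = 3 each), at 8 to 24 reads in memory plants and 14 to 19 reads in wild-type plants.

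Among the indolic regulators, MYB51 and MYB34 had values in opposite directions, and neither was called. MYB51 (AT1G18570), which activates indolic synthesis under stress, was at 13.5, 10.1 and 12.02 CPM in memory plants and 19.1, 16.6 and 32.7 CPM in wild-type plants. Every memory plant was below every wild-type plant, and wild-type plant 24 was the highest by far. On the log2 scale the difference was -0.95, with a 95% interval of -1.52 to -0.38 (SE 0.262, edgeR adjusted p = 0.106). MYB51 was called lower without a low-count filter (edgeR adjusted p = 0.0478) and without plant 23 (log2 fold change -1.13, edgeR adjusted p = 0.00526), and without plant 24 its value was -0.59 (edgeR adjusted p = 0.305). JAZ1, a jasmonate-induced repressor, was also highest in plant 24, at 16.2, 19.5 and 13.9 CPM in memory plants and 58.7, 45.8 and 89.4 CPM in wild-type plants (edgeR adjusted p = 0.00440). The list of 11 jasmonate and wound genes to which JAZ1 belongs summed to 3240 to 5585 CPM in memory plants and 4098 to 4133 CPM in wild-type plants. Of its 9 tested genes 1 was called lower and none higher, and 3 had positive and 6 negative values. LOX2 makes up most of that sum, at 2862, 3209 and 2779 CPM in wild-type plants 22, 23 and 24. VSP2, of the same list, was at 290.4, 37.5 and 289.2 CPM in those plants, a spread that the sum hides. The part of this list in the MYB51 values was not tested. MYB34, the constitutive activator of the indolic branch, was at 16.2, 25.5 and 22.4 CPM in memory plants and 18.4, 20.3 and 14.6 CPM in wild-type plants, and the groups overlapped (log2 fold change 0.27 with SE 0.209, edgeR adjusted p = 0.650).

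The 6 genes of methionine chain elongation were not called, and 5 of their intervals lay inside a 2-fold change. In this module BCAT4 deaminates methionine, BASS5 (BAT5 in RefSeq) carries the keto acid into the plastid, MAM1 and MAM3 (IMS2 in RefSeq) condense it with acetyl-CoA, and IIL1 and IMD1 isomerise and oxidise the product. MAM1 was at 246.8, 292.1 and 203.4 CPM in memory plants and 324.6, 305.4 and 270.1 CPM in wild-type plants. Only memory plant 32 reached into the wild-type range (log2 fold change -0.28 with SE 0.163, edgeR adjusted p = 0.536). MAM3, which makes the longest chains, had few reads, at 4.92, 3.02 and 2.77 CPM in memory plants and 7.74, 9.28 and 5.05 CPM in wild-type plants. The groups did not overlap, but memory plant 31 and wild-type plant 24 nearly met (log2 fold change -1.03 with SE 0.358, edgeR adjusted p = 0.222). BASS5 was at 50.6, 56.9 and 43.2 CPM in memory plants and 50.02, 39.2 and 32.0 CPM in wild-type plants, and the groups overlapped (log2 fold change 0.32 with SE 0.180, edgeR adjusted p = 0.519). BCAT4, IIL1 and IMD1 averaged 166.6 ± 36.5, 307.9 ± 34.6 and 177.1 ± 43.3 CPM in memory plants, and 171.1 ± 12.6, 318.6 ± 20.0 and 168.2 ± 24.9 CPM in wild-type plants (SD, n = 3 each), with log2 fold changes between -0.05 and 0.07. BCAT4 overlaps the opposite-strand gene IKU2 by 307 bases, and IKU2 had no read in any library.

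The 8 enzymes that build the aliphatic core were not called, 4 with positive and 4 with negative values. CYP79F1, which turns elongated methionine into aldoximes, was at 262.6, 286.0 and 221.7 CPM in memory plants and 333.8, 324.0 and 254.6 CPM in wild-type plants. Wild-type plant 24 lay within the memory range (log2 fold change -0.24 with SE 0.161, edgeR adjusted p = 0.587). Its tandem neighbour CYP79F2, which accepts the longest chains, averaged 4.99 ± 3.13 CPM in memory plants and 6.26 ± 3.05 CPM in wild-type plants (SD, n = 3 each). Per kilobase of exon, the mean level was 78.5 CPM for CYP79F1 and 2.47 CPM for CYP79F2 in memory plants, and 92.9 CPM and 3.10 CPM in wild-type plants. The coding sequences of the 2 genes are identical at 91.9% of aligned bases and share 54 stretches of 50 bases, so some CYP79F2 reads may belong to CYP79F1. CYP83A1, the next enzyme, averaged 333.6 ± 34.4 CPM in memory plants and 372.5 ± 65.7 CPM in wild-type plants (SD, n = 3 each). GSTF11, a glutathione transferase placed in this step by co-expression, was at 16.2, 13.3 and 7.86 CPM in memory plants and 8.10, 6.19 and 9.40 CPM in wild-type plants. Memory plants 31 and 32 were above all wild-type plants, but plant 33 was not (log2 fold change 0.66 with SE 0.290, edgeR adjusted p = 0.368). GSTF11 lies wholly inside the annotated span of the opposite-strand gene NAC045, which stood at 0.402 to 0.855 CPM in memory plants and 0 to 0.580 CPM in wild-type plants. The other 4 were the glutathione transferase gene GSTU20 (log2 fold change 0.05), the glucosyltransferase gene UGT74C1 (0.25) and the sulphotransferase genes SOT17 (0.18) and SOT18 (-0.27).

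No gene of the steps shared by both branches or of the indolic core was called. SUR1, the C-S lyase of the pathway, averaged 133.0 ± 6.92 CPM in memory plants and 151.4 ± 11.4 CPM in wild-type plants (SD, n = 3 each; log2 fold change -0.19), GGP1, which trims the glutathione conjugate, had a log2 fold change of 0.17 and the glucosyltransferase gene UGT74B1 one of 0.06. All 4 indolic core genes had negative values, between -0.28 and -0.08, and none was called. CYP79B2, which turns tryptophan into its aldoxime, was at 29.3, 40.6 and 42.1 CPM in memory plants and 44.6, 47.6 and 43.3 CPM in wild-type plants, with the groups just apart (log2 fold change -0.28 with SE 0.161, edgeR adjusted p = 0.532). Its paralog CYP79B3 averaged 32.9 ± 3.50 CPM in memory plants and 36.8 ± 9.48 CPM in wild-type plants (SD, n = 3 each). CYP83B1, which oxidises that aldoxime, was at 293.8, 317.4 and 322.9 CPM in memory plants and 338.3, 393.4 and 335.7 CPM in wild-type plants. The groups did not overlap, yet the log2 fold change was -0.19 with a 95% interval of -0.50 to 0.12 (SE 0.142, edgeR adjusted p = 0.633). The sulphotransferase gene SOT16, which acts on indolic substrates, averaged 68.2 ± 13.1 CPM in memory plants and 72.1 ± 1.80 CPM in wild-type plants (SD, n = 3 each).

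**Figure D2:**
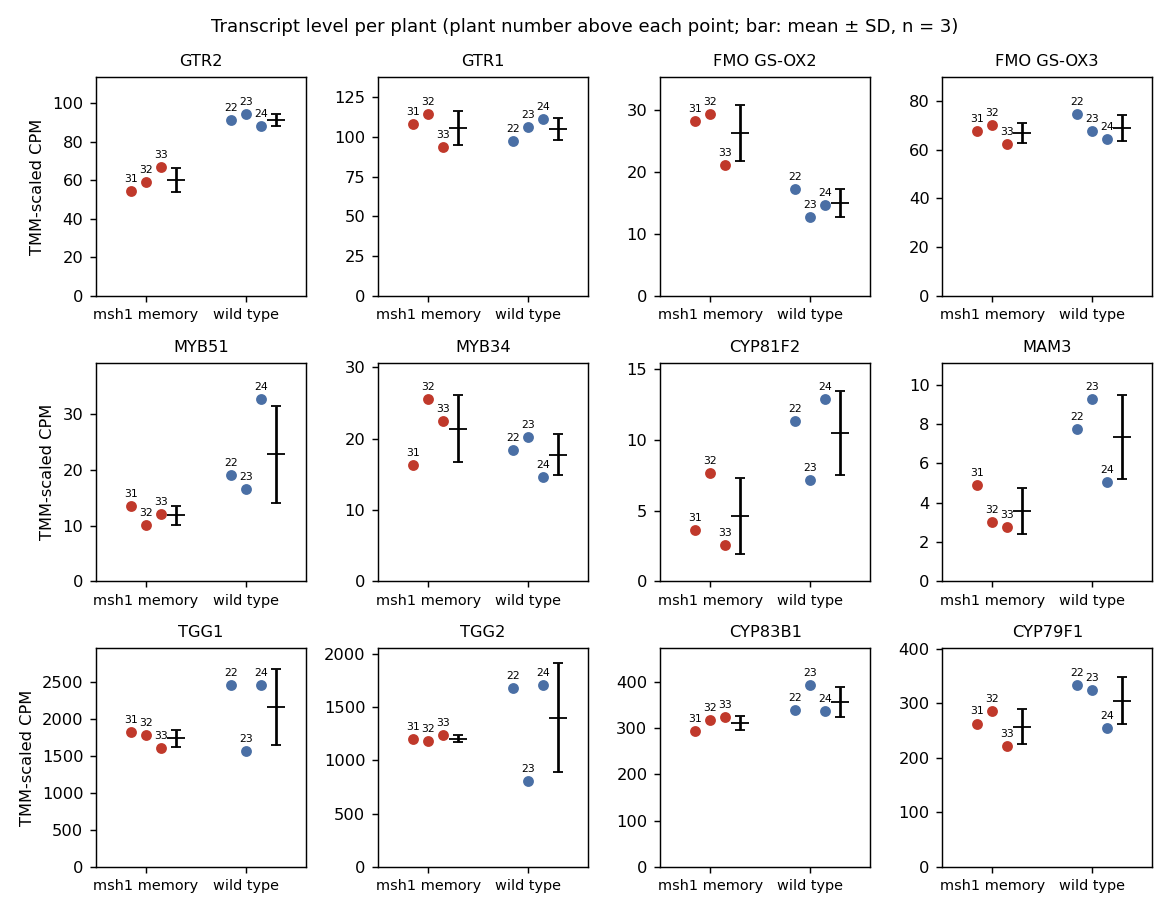
TMM-scaled CPM (y axes, from 0) of 12 members in each plant, msh1 memory in red and wild type in blue, with the plant number above each point and the mean ± SD beside it. GTR2, which was called, and FMO GS-OX2, which was not, separate cleanly by group beside their overlapping paralogs GTR1 and FMO GS-OX3. Plant 23 is the lowest wild-type plant for TGG1 and TGG2.

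Among the genes that modify side chains, FMO GS-OX2 had the highest fold change of all members but was not called. The 5 FMO GS-OX genes encode flavin monooxygenases that oxidise the side-chain sulphur of aliphatic glucosinolates. FMO GS-OX2 (AT1G62540, chromosome 1, 23151634 to 23155728, plus strand) was at 28.2, 29.4 and 21.0 CPM in memory plants and 17.3, 12.8 and 14.6 CPM in wild-type plants. Every memory plant was above every wild-type plant, at a fold change of 1.76 (log2 0.82, SE 0.193, 95% interval 0.39 to 1.24, edgeR adjusted p = 0.0575). It was called higher without plant 23 (log2 fold change 0.72, edgeR adjusted p = 0.0309), with DESeq2 and with edgeR without a low-count filter. The next gene along the chromosome, FMO GS-OX3, was at 67.7, 70.2 and 62.2 CPM in memory plants and 74.9, 67.7 and 64.2 CPM in wild-type plants, and its groups overlapped (log2 fold change -0.05, 95% interval -0.34 to 0.24). The coding sequences of the 2 neighbours are identical at 85.0% of aligned bases and share no stretch of 50 bases. FMO GS-OX4, the next in the tandem array, varied widely within groups, at 26.5, 14.9 and 10.4 CPM in memory plants and 12.8, 35.6 and 40.02 CPM in wild-type plants. FMO GS-OX1 was at 33.1, 48.1 and 42.8 CPM in memory plants and 51.6, 57.2 and 45.1 CPM in wild-type plants, with memory plant 32 inside the wild-type range (log2 fold change -0.31 with SE 0.166, edgeR adjusted p = 0.482). FMO GS-OX5 averaged 47.6 ± 1.56 CPM in memory plants and 52.8 ± 11.7 CPM in wild-type plants (SD, n = 3 each), and it overlaps 3 other annotated genes.

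AOP2, a dioxygenase gene that forms alkenyl side chains in other accessions, is annotated in TAIR10.1 as a transcribed pseudogene, and it was transcribed in both groups. It was at 36.8, 44.5 and 40.5 CPM in memory plants and 28.3, 52.2 and 37.4 CPM in wild-type plants, and the memory values lay inside the wild-type range (log2 fold change 0.05 with SE 0.204, edgeR adjusted p = 0.954). CYP81F2, which hydroxylates the indole ring in pathogen defence, had the lowest log2 fold change of all members and was not called. It was at 3.63, 7.64 and 2.54 CPM in memory plants and 11.3, 7.15 and 12.9 CPM in wild-type plants, and memory plant 32 was above wild-type plant 23 (log2 fold change -1.17 with SE 0.385, 95% interval -2.01 to -0.32, edgeR adjusted p = 0.195). Without plant 23 it was called lower (log2 fold change -1.37, edgeR adjusted p = 0.0208). MYB51 and CYP81F2 were both highest in wild-type plant 24, as JAZ1 was. Plant 24 was the highest wild-type plant for 7 of the 38 tested members (18.4%), beside 33.3% of all tested genes. Of the other tested jasmonate and wound genes, JAZ5, JAZ6, JAZ10 and VSP1 were highest in plant 24. LOX2 and AOS were highest in plant 23, and JAZ9 and VSP2 in plant 22. Whether the state of plant 24 bears on MYB51 and CYP81F2 was not tested.

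GTR2 (AT5G62680, chromosome 5, 25165137 to 25168060, minus strand) was the 1 member called. It encodes a proton-coupled importer that, together with GTR1, loads glucosinolates into the phloem. GTR2 was at 54.5, 59.1 and 66.8 CPM in memory plants 31, 32 and 33 and at 91.1, 94.5 and 88.2 CPM in wild-type plants 22, 23 and 24. All 3 memory plants lay below all 3 wild-type plants, with a gap between the groups wider than the range of either. The level fell to 60.1 ± 6.22 CPM in memory plants, against 91.3 ± 3.16 CPM in wild-type plants (SD, n = 3 each), which is -0.60 on the log2 scale with a 95% interval of -0.90 to -0.31 (SE 0.136, edgeR adjusted p = 0.0460). Phloem markers SUC2, SWEET11 and SWEET12 summed to 167.5, 164 and 141.0 CPM in memory plants 31, 32 and 33. In wild-type plants 22, 23 and 24 the sums were 163.6, 270.5 and 156.8 CPM, so the upper end rests on plant 23. SUC2 makes up most of these sums. None of the 3 markers was called, at log2 fold changes of -0.29, -0.40 and -0.70, and their part in the GTR2 value was not tested.

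The GTR2 call was close to the threshold. It held with the size factors of DESeq2, with both other filters, with the DESeq2 test and without plant 23 (edgeR adjusted p = 0.0100). It was lost with library totals (edgeR adjusted p = 0.0937), limma voom (0.0632), edgeR without robust estimation (0.0523) and without plant 22, 24, 31, 32 or 33 (edgeR adjusted p = 0.124, 0.0804, 0.321, 0.219 and 0.114), while the log2 fold change stayed between -0.68 and -0.53 over the 13 alternatives.

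GTR1 (AT3G47960, chromosome 3, 17697942 to 17700923, minus strand), the paralog of GTR2, was not called. It was at 108.6, 114.9 and 93.6 CPM in memory plants and 97.3, 106.1 and 111.2 CPM in wild-type plants, with a log2 fold change of 0.01 and a 95% interval of -0.29 to 0.31 (edgeR adjusted p = 0.984). The coding sequences of GTR2 and GTR1 are identical at 78.2% of aligned bases and share no stretch of 50 bases. At its end GTR2 overlaps the opposite-strand proton pump gene HA11 by 73 bases, and GTR1 overlaps its homologue HA4 by 58. The libraries do not mark strand, so reads of these overlaps cannot be assigned, and the part of HA11 in the GTR2 value was not tested. HA11 was at 71.2, 69.6 and 82.1 CPM in memory plants and 79.5, 90.5 and 71.0 CPM in wild-type plants, with overlapping groups (log2 fold change -0.11, edgeR adjusted p = 0.814).

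The 300 bases before the annotated start of GTR2 and GTR1, and of the tandem neighbours FMO GS-OX2 and FMO GS-OX3, are shown because in each pair 1 gene separated the groups and the other did not. They were read from TAIR10.1 at chr5:25168061-25168360 (minus strand), chr3:17700924-17701223 (minus strand), chr1:23151334-23151633 (plus strand) and chr1:23159434-23159733 (plus strand), and are written in gene direction with matches to the W-box core TTGAC on either strand in capitals.
GTR2: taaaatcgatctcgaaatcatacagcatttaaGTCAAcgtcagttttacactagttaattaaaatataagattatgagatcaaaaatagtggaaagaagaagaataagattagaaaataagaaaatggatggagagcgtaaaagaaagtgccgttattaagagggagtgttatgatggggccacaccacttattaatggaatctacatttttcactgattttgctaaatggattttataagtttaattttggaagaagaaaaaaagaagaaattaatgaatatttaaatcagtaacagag
GTR1: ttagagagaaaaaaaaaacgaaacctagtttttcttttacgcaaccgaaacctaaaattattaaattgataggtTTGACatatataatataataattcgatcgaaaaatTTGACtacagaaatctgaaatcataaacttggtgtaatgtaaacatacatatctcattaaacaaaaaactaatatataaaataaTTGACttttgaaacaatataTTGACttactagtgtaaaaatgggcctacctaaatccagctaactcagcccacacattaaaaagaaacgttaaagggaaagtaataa
FMO GS-OX2: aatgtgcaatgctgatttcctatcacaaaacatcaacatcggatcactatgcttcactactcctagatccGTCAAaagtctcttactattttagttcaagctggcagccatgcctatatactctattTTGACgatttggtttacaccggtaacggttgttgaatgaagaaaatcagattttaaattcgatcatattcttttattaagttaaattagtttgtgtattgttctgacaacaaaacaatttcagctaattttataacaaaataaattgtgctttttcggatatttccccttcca
FMO GS-OX3: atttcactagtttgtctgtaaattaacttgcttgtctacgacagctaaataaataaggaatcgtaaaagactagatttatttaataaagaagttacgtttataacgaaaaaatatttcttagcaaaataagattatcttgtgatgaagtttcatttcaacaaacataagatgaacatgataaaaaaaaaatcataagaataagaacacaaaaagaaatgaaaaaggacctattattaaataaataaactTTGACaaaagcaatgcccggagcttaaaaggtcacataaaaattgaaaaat
The W-box core is the centre of the WRKY factor site, and it occurs 1 time before GTR2, 4 times before GTR1, 2 times before FMO GS-OX2 and 1 time before FMO GS-OX3. It is a common run of letters, present in 50.4% of the 27443 nuclear protein-coding windows of this length and in 16 of the 39 member windows (41.0%). None of the 4 windows shown holds the G-box CACGTG, the site of MYC factors (7.09% of all windows, 3 of 39 members), the evening element AAAATATCT (2.79% and 0 of 39) or the CCA1-binding site AAAAATCT (7.94% and 4 of 39). AOP2 has no window here because it is not annotated as protein-coding.

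None of the 3 breakdown genes was called. The myrosinase genes TGG1 and TGG2 had mean levels of 916.3 and 610.0 CPM per kilobase of exon in memory plants and 1140 and 709.8 CPM per kilobase in wild-type plants, above every other member on that scale. TGG1 was at 1819, 1784 and 1601 CPM in memory plants and 2458, 1565 and 2451 CPM in wild-type plants. The memory plants lay between wild-type plant 23 and the other 2 wild-type plants (log2 fold change -0.31 with SE 0.193, edgeR adjusted p = 0.558). TGG2 was at 1195, 1175 and 1235 CPM in memory plants and 1681, 805.6 and 1708 CPM in wild-type plants, the same order (log2 fold change -0.22 with SE 0.251, edgeR adjusted p = 0.788). Both values depended on plant 23, since without it both were called lower, at log2 fold changes of -0.50 for TGG1 and -0.49 for TGG2 (edgeR adjusted p = 0.0165 and 0.0144). Without plant 23, 5 members were called lower (GTR2, TGG1, TGG2, MYB51 and CYP81F2) and 1 higher (FMO GS-OX2), beside 3.27% and 2.66% of all genes tested without it. TGG1 is known from guard cells, and 7 guard cell markers summed to 93.2 to 107.5 CPM in memory plants and 89.4 to 127.4 CPM in wild-type plants, with none called. The sum hides their directions, since 2 had positive and 5 negative values. GC1, the largest part of the memory sums, was at 41.9, 40.6 and 31.9 CPM in memory plants. In wild-type plants GC1 was at 20.9, 30.4 and 26.5 CPM (log2 fold change 0.56). MYB60 went the other way, with every memory plant below every wild-type plant (log2 fold change -0.56). The part of these markers in the TGG1 value was not tested. ESP, which diverts breakdown towards nitriles, was at 43.2, 61.2 and 43.0 CPM in memory plants and 38.0, 44.9 and 50.1 CPM in wild-type plants, with overlapping groups (log2 fold change 0.15 with SE 0.175, edgeR adjusted p = 0.792).

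By branch, the aliphatic genes had no common direction and the indolic genes had mostly negative values. Of 23 tested aliphatic genes 11 had positive and 12 negative values, with a median log2 fold change of -0.04. Of 7 tested indolic genes 1 had a positive and 6 a negative value, with a median of -0.19. Over all 16928 tested genes 8661 had positive and 8267 negative values. The summed level of the indolic branch was 457.1, 518.4 and 487.5 CPM in memory plants and 542.0, 602.0 and 538.8 CPM in wild-type plants. CYP83B1 makes up most of that sum. No gene of either branch was called, and the difference between branches was not tested.

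Many of the members, but not all, also shared an order of plants within a group. Memory plant 32 was the highest memory plant for 24 of the 38 tested genes (63.2%), beside 37.7% of all tested genes, and plant 33 was the lowest for 25 (65.8%), beside 36.9%. Among wild-type plants, plant 24 was the lowest for 20 of the 38 (52.6%), beside 32.6% of all tested genes. Plant 23 was the highest wild-type plant for 17 (44.7%), beside 39.4%. In the aliphatic branch plant 32 was the highest memory plant for 16 of 23 genes and plant 33 the lowest for 16. There wild-type plant 22 was highest for 12 and plant 24 lowest for 14. The aliphatic regulators went against this order, since MYB28 and MYB29 were lowest in memory plant 32, and MYB28 and MYB76 highest in plant 33. Of the 7 tested indolic genes, plant 32 was the highest memory plant for 3 and plant 33 the lowest for 3. Summed over the 6 chain elongation genes, the level was 941.6, 1117 and 800.1 CPM in memory plants 31, 32 and 33. The SD of log2(CPM + 0.5) between memory plants had a median of 0.259 over the members and 0.188 over all tested genes, and between wild-type plants 0.213 over the members and 0.244 over all tested genes. Genes of 1 pathway are not independent, so these shares describe the plants. The jasmonate and wound list, of which LOX2 makes up most, summed to 3240, 5585 and 3282 CPM in memory plants 31, 32 and 33. That list was highest in plant 32 and lowest in plant 31, and its part in the pattern was not tested.

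**Figure D3:**
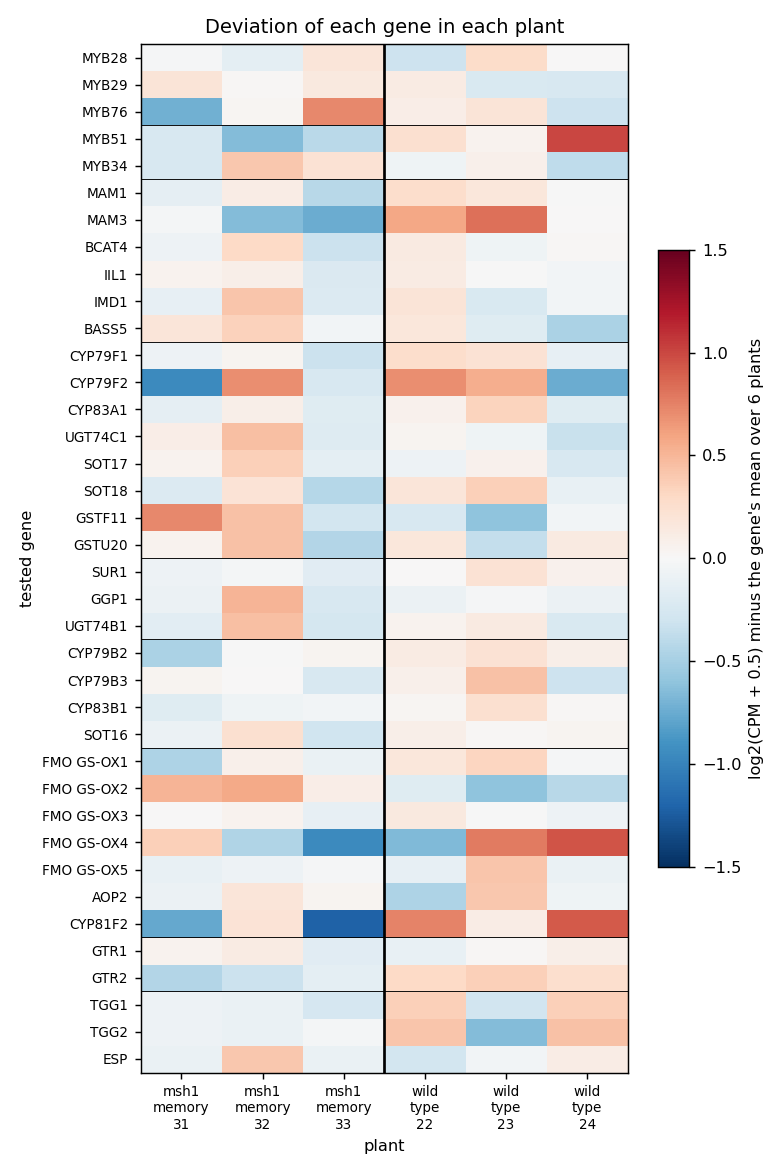
Deviation of log2(CPM + 0.5) from the gene's mean over 6 plants (colour, red above and blue below the mean) for 38 tested genes (rows, grouped by role) in each plant (columns, msh1 memory at the left). The column of memory plant 32 is redder than that of plant 33 over chain elongation and the aliphatic core, and GTR2 is blue in every memory plant and red in every wild-type plant.

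The share of joint reads held by each gene was compared in 10 pairs of related genes, and no pair passed the test. The groups did not overlap in 3 pairs, which are given as a description, since no such share was computed over other gene pairs. GTR2 held 33.4%, 34.0% and 41.6% of the reads of GTR2 and GTR1 in memory plants and 48.3%, 47.1% and 44.2% in wild-type plants, a difference of -10.2 percentage points. FMO GS-OX2 held 29.4%, 29.5% and 25.3% of the reads of FMO GS-OX2 and FMO GS-OX3 in memory plants and 18.8%, 15.9% and 18.5% in wild-type plants, a difference of 10.3 points. SOT17, a sulphotransferase of the aliphatic branch, held 46.9%, 45.0% and 47.2% of the reads of SOT17 and SOT18 in memory plants and 38.2%, 37.6% and 40.3% in wild-type plants, a difference of 7.69 points. For each of these 3 pairs the two-sided exact permutation p was 0.1, the smallest that 3 plants against 3 allow, and 0.333 after Benjamini-Hochberg adjustment over the 10 pairs, so the design allowed no pair to pass. These shares need no scaling between libraries. In the other 7 pairs the groups overlapped. MYB51 held the most divergent share among them, at 45.3%, 28.2% and 34.9% in memory plants and 51.0%, 45.0% and 69.1% of the reads of MYB51 and MYB34 in wild-type plants.

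**Figure D4:**
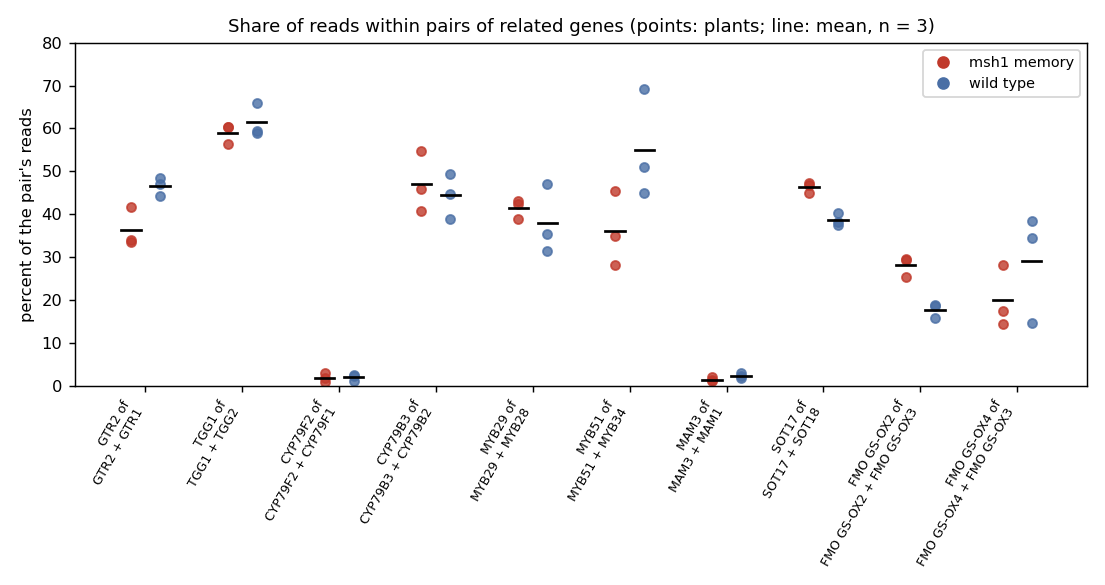
Percent of the joint reads of 10 pairs of related genes that belong to the first named gene (y axis) in each plant, msh1 memory in red left of wild type in blue, with the mean as a line. The groups separate for GTR2, SOT17 and FMO GS-OX2, and the 3 SOT17 values of 45.0% to 47.2% in memory plants lie above 37.6% to 40.3% in wild-type plants.

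Of 46 further genes of the pathway 38 were tested, and 3 fell and none rose. That is 7.89% of them, beside 1.37% of all tested genes called lower and 1.82% called in either direction. The list was chosen with earlier results of these data known, so these shares are a description. The median log2 fold change of the 38 tested genes was -0.068. ESM1, which steers breakdown away from nitriles, was at 1810, 1926 and 1473 CPM in memory plants and 3014, 3439 and 2662 CPM in wild-type plants. All memory plants lay below all wild-type plants (log2 fold change -0.81 with SE 0.175, edgeR adjusted p = 0.0390). GSTF10, a glutathione transferase gene, was at 130.6, 135.0 and 103.6 CPM in memory plants and 197.8, 198.0 and 219.6 CPM in wild-type plants (log2 fold change -0.74 with SE 0.147, edgeR adjusted p = 0.0257). GSTF10 overlaps the opposite-strand gene AT2G30880, and the part of that gene in the GSTF10 value was not tested. SDI1, a repressor of aliphatic synthesis that is induced by sulphur shortage, was at 2.99, 3.22 and 2.54 CPM in memory plants and 11.2, 6.38 and 8.005 CPM in wild-type plants (log2 fold change -1.53 with SE 0.329, edgeR adjusted p = 0.0377). The SDI1 values rest on few reads, 14, 16 and 11 in memory plants and 62, 33 and 46 in wild-type plants. GSTF10 and SDI1 also had groups that did not overlap. Each of these 3 calls was lost when any 1 plant other than plant 23 was left out, with edgeR adjusted p-values between 0.0521 and 0.231, and SDI1 was also lost with library totals and with voom.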

How the data were processed

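Whole-number read counts per gene, 1 file for each of 6 plants, were deposited by the authors without normalization. TAIR10 and DESeq2 are named in the submitters' processing notes. The sources used here do not name the aligner or the counting program, nor say how strand was used, and per the labels' protocols libraries followed the TruSeq RNA v2 guide, whose kit does not mark strand. All 279 organelle loci are at 0 in every library.

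From these counts, R 4.3.3 and edgeR 4.0.16 were used to drop low genes (filterByExpr, minimum count 10 and minimum total 15), scale libraries by TMM and compare the groups by a two-sided quasi-likelihood test (robust glmQLFit, glmQLFTest). Benjamini-Hochberg adjustment ran over all 16928 genes, at a threshold of 0.05. Each log2 fold change is memory over wild type, with its SE and 95% interval taken from the F statistic. The procedure was tested on simulated counts. Alternatives were DESeq2 size factors, library totals, no filter, a filter of 1 CPM in 3 libraries, DESeq2 1.42.0, limma 3.58.1 voom, no robust estimation and leaving out each plant.

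Positions, exon lengths and sequences come from RefSeq TAIR10.1, matched by locus, since the files hold no coordinates. The members and lists were chosen with earlier results of these data known. Values per plant are given for called members, for uncalled members with the smallest p up to 12 in all, and for MYB28, MYB29, MYB34, CYP83B1, GTR1, TGG2, ESP, AOP2 and AOP3. Further pathway genes are named where called. FMO GS-OX3, FMO GS-OX4, SOT17 and SOT18 have values outside that rule and were chosen after their values were seen. The plants are separate individuals, and libraries of 1 group differed by more than sampling noise (chi-square per degree of freedom at least 3.18).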

Additional observations from a re-analysis of the deposited data

How the results depend on the processing

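The median log2 fold change of the tested members stayed between -0.19 (without plant 32) and -0.0036 (library totals) over the 13 alternatives. The number of members called higher, 0 as reported, was 1 without a low-count filter, with DESeq2 and without plant 23, and leaving out single plants gave 0 to 1. The number called lower, 1 as reported, was 2 without a low-count filter (GTR2 and MYB51), 0 with library totals, voom or no robust estimation, and 0 to 5 when single plants were left out, with 5 without plant 23 and 0 without any other plant. Over all genes, 308 calls became 530 with DESeq2 and 34 to 1019 when single plants were left out, the lowest without plant 31 and the highest without plant 23. Of the further pathway genes, 1 (MYC4) was called higher without a low-count filter, with DESeq2 and without plant 23 (0 to 1 over the plants left out), and the 3 called lower became 5 with DESeq2 and 0 to 5 when single plants were left out. Of the 38 members 16 changed sign under at least 1 alternative, none of them under a setting that called it, and no called gene reversed. Leaving out single plants, chosen for the pair shares after the data were seen, kept the GTR2 share difference between -12.9 and -8.74 points, that of FMO GS-OX2 between 9.41 and 11.7 and that of SOT17 between 7.13 and 8.48. The cause of these changes was not tested. No paired analysis was possible because no plant number occurs in both groups. Depth limits CYP81F2, MAM3, MYB76 and CYP79F2, whose highest counts in any library were 74, 48, 24 and 47 reads. It also limits the called pathway gene SDI1, whose highest count was 62 reads.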

Other observations

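Wild-type plant 23, which was low in TGG1 and TGG2, was also low in several breakdown genes that are no members of the 40, and these were chosen after their values were seen. NSP1, a nitrile specifier gene, was at 57.1, 53.7 and 57.6 CPM in memory plants and 58.1, 11.99 and 56.4 CPM in wild-type plants 22, 23 and 24. Its neighbour NSP4 was at 5.98, 6.03 and 5.32 CPM in memory plants and 7.74, 0 and 7.83 CPM in wild-type plants. The beta-glucosidase genes BGLU18 and PYK10, known from ER bodies, followed the same pattern. BGLU18 was at 557.1 to 948.4 CPM in memory plants and 834.2, 123.2 and 966.3 CPM in wild-type plants, and PYK10 was at 10.04 to 21.5 CPM in memory plants and 20.7, 0.193 and 17.8 CPM in wild-type plants. Not all breakdown genes were low there, since ESM1 was highest in plant 23. Apart from ESM1, no gene named in this paragraph was called (edgeR adjusted p between 0.558 and 0.973).

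IGMT5, an O-methyltransferase gene of indolic glucosinolates, was at 8.55, 14.5 and 3.01 CPM in memory plants and 22.7, 19.3 and 28.7 CPM in wild-type plants, and was called with DESeq2 alone among the 13 alternatives. The nitrilase gene NIT2 was at 7.48, 10.06 and 15.03 CPM in memory plants and 36.7, 12.2 and 39.2 CPM in wild-type plants, and was called lower with DESeq2 and without plant 23. MYC4, a jasmonate-linked partner of the MYB regulators, was at 50.01, 73.0 and 51.3 CPM in memory plants and 40.3, 31.1 and 31.7 CPM in wild-type plants, with groups that did not overlap (log2 fold change 0.76, edgeR adjusted p = 0.0579). SDI2, listed with SDI1, was at 23.7, 17.9 and 19.2 CPM in memory plants and 38.3, 35.0 and 28.2 CPM in wild-type plants. Its groups did not overlap (log2 fold change -0.74, edgeR adjusted p = 0.0603), and it was called in 3 of the 13 alternatives. The genes of this paragraph were also chosen after their values were seen.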
